A study of Mus musculus with 12 samples.

Results

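The cytosolic ribosomal protein genes were examined in bulk RNAseq of B2 and MemB sorted from the peritoneal cavity (PerC) of control and KI mice. Members were the rows whose symbol follows the pattern of a large (Rpl, Rplp) or small (Rps, Rpsa) subunit protein and that had 10 or more counts in at least 3 libraries. Of the 56941 genes in the table, 88 had such a symbol and 84 met the count rule, 49 of the large and 35 of the small subunit. The 4 that failed were Rpl39l, with at most 6 counts in a library, Rpl32l, also with at most 6, and Rpl3l and Rpl10l, with 0 counts in all 12 libraries. Every one of the 84 passed the filter on low counts and was tested.

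The study turned to this RNAseq when asking whether KI cells of the PerC proliferate more. GPR34 is a receptor for the lipid lysoPS. KI mice carry Cd21-Cre, which acts in mature B cells, and an allele in Rosa26. From that allele Cre releases GFP and a shortened GPR34 with gain of function. The labels state neither the alleles of the controls nor an age for each mouse. The study's methods say that mice shared cages with littermates, and give their age only as a range for all experiments. The 4 groups, KI and control of each cell type, had 3 libraries each, with B2 sorted as IgD+IgM+ and MemB as IgD-IgM-, and the labels name no treatment. Replicates were labelled as biological, but whether B2 and MemB with the same number came from the same mouse is not stated.

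A ribosome is built from ribosomal RNA and one copy of nearly every one of these proteins, so cells make the proteins in matched amounts. The small subunit reads the mRNA, and the large subunit joins amino acids. The stalk proteins Rplp0, Rplp1 and Rplp2 sit on the large subunit and recruit elongation factors. Most mRNAs of this family begin with a C and a run of pyrimidines, the terminal oligopyrimidine (TOP) motif, through which mTOR and LARP1 adjust their translation mostly without a change in mRNA amount. In lymphocytes, growth signals and MYC raise ribosome production before division. RNAseq measures the mRNA and not the protein, and in bulk samples fewer cells of a type and less RNA per cell cannot be told apart.

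To show that shared start, 30 bases around the annotated start of 9 members are given 5′ to 3′ with the build and strand. They were taken from the RefSeq promoter table (GRCm38.p6), which held 60 of the 84 members, and placed on GRCm39 by sequence match. The window opens 10 bases before the annotated start, and capitals mark a C followed by 4 or more C or T that begins within 10 bases of that start.

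Rps15a, chr7:117715351-117715380, minus strand: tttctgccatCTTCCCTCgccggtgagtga
Rpl38, chr11:114559396-114559425, plus strand: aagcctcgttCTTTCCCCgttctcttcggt
Rps6, chr4:86775585-86775614, minus strand: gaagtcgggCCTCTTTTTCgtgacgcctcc
Rplp2, chr7:141027554-141027583, plus strand: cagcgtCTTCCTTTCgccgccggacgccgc
Rpl35a, chr16:32876842-32876871, plus strand: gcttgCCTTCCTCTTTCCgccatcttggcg
Rps27, chr3:90120936-90120965, minus strand: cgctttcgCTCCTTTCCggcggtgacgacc
Rps27l, chr9:66853358-66853387, plus strand: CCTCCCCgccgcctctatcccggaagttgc
Rpl22l1, chr3:28859647-28859676, plus strand: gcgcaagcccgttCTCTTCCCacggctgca
Rplp0, chr5:115697516-115697545, plus strand: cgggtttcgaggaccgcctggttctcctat

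In Rps15a and Rpl38 the run in capitals begins exactly at the annotated start, in the others it begins before or after it, and Rplp0 has none within the window searched. Rpl35a and Rps27l have more than 1 annotated start, and 1 is shown for each. Over all 60 matched members, 13 (21.7%) had a C at the annotated start itself with 4 C or T after it, also where the run began further upstream as in Rps6 and Rplp2, against 3.01% of the 27025 genes in the table. A run that begins within 10 bases of the start was found in 36 (60%), against 34.4% of genes. The letters CCGGAA, the core of ETS family sites, stood on either strand of the 300 bases around the start in 34 members (56.7%) and in 16.7% of genes. The letters ATGGCG, the core of YY1 sites, stood on either strand in 19 members (31.7%) and in 10.2% of genes. The motifs were searched separately and may overlap; a match is letters in a window and not a shown site.

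Of the 84 members, 80 are protein coding in GENCODE M39 and 4, Rpl6l, Rps12l1, Rps3a2 and Rps3a3, are annotated there as processed pseudogenes. The members lie on 19 chromosomes, with 4 (Rpl10, Rpl36a, Rpl39 and Rps4x) on X. The authors' counts are RSEM's expected counts, in which a read that fits several genes is shared between them. In 83 members at least 1 library had a count that was not whole, to within 0.005, and in 71 members all 12 did, so counts of this family, which has many near-identical pseudogenes, are uncertain.

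Depth was between 29895031 and 39732039 counts per library. B-cell markers, among them Cd79a, Cd79b, Ms4a1 and Pax5, were present in all libraries, with a sum of 3165 to 3568 CPM in MemB, 3432 to 3569 CPM in control B2 and 3077 to 3342 CPM in KI B2 (counts scaled to a common library size with TMM). The B2 list, Ighd, Ighm, Fcer2a and Cr2, summed to 5783 to 6434 CPM in control B2 and 4617 to 5575 CPM in KI B2 and, over the MemB libraries, to 2347 to 3008 CPM in control and 497 to 893 CPM in KI. These sums rest mostly on Ighm, with means of 2441 CPM in control MemB and 443 CPM in KI MemB. Ighd was also lower in KI, at 228 and 89.7 CPM in the same order. Fcer2a and Cr2 went the other way, with 54.6 and 44.3 CPM in control MemB and 121 and 81.0 CPM in KI MemB. In B2, too, Ighm and Ighd were lower in KI and Fcer2a and Cr2 higher. T and NK cell markers summed to 79.1 to 119 CPM in control MemB, 1.98 to 48.8 CPM in KI MemB and at most 44.2 CPM in B2, macrophage markers to at most 24.9 CPM, and mast cell markers to at most 1.77 CPM in control B2 and KI MemB, 74.9 CPM in KI B2 and 240.0 CPM in control MemB. Plasma cell markers summed to 302 to 495 CPM in control MemB, 380 to 505 CPM in KI MemB and 198 to 372 CPM in B2, mostly from Irf4 and Xbp1. Among them Jchain had a mean of 140 CPM in KI MemB and 10.1 CPM in control MemB, Sdc1 4.83 and 0.039 CPM, and Tnfrsf17 5.14 and 0.35 CPM. The highest Sdc1 level in any library was 14.4 CPM, so its KI MemB mean rests mostly on a single library. In the same order, Irf4 had 219 and 323 CPM, Prdm1 4.60 and 6.83 CPM, and Xbp1 64.0 and 61.1 CPM. The part of these markers in the members' levels was not tested. B-1 markers summed to 285 to 514 CPM in B2, 1218 to 1449 CPM in control MemB and 668 to 909 CPM in KI MemB. The B2, B-1 and T and NK cell sums thus did not overlap between KI and control MemB, nor did the B2 and B-cell sums between KI and control B2, and their part in the members' levels was not tested. Gpr34 was higher in every KI library (100.3 to 168 CPM) than in every control library (3.42 to 30.8 CPM). The 3 ribosomal RNA genes in the table took 29.3% to 38.3% of the counts, and 2 of them are mitochondrial (mt.Rnr1 and mt.Rnr2, with means of 67142 and 156250 CPM); the cytosolic Rn18s.rs5 had a mean of 107130 CPM.

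Together the 84 members took between 4.20% (KI B2 replicate 1) and 5.23% (KI MemB replicate 1) of all counts of a library. In KI MemB the shares were 5.23%, 4.31% and 4.94%, and in control MemB 4.79%, 4.73% and 4.45%. In KI B2 they were 4.20%, 4.76% and 5.03%, and in control B2 4.81%, 4.66% and 4.27%. All 4 groups overlapped. The means were 4.83% ± 0.467 for KI MemB, 4.65% ± 0.183 for control MemB, 4.66% ± 0.426 for KI B2 and 4.58% ± 0.281 for control B2 (SD, n = 3 each), so the distance between the group means was smaller than the SD of KI MemB. With these 3 genes, mitochondrial and cytosolic, out of the total, the share ran from 6.03% (control B2 replicate 3) to 7.99% (KI MemB replicate 1). Large subunit members held between 1.21 and 1.31 times the counts of small subunit members in every library.

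**Figure D1:**
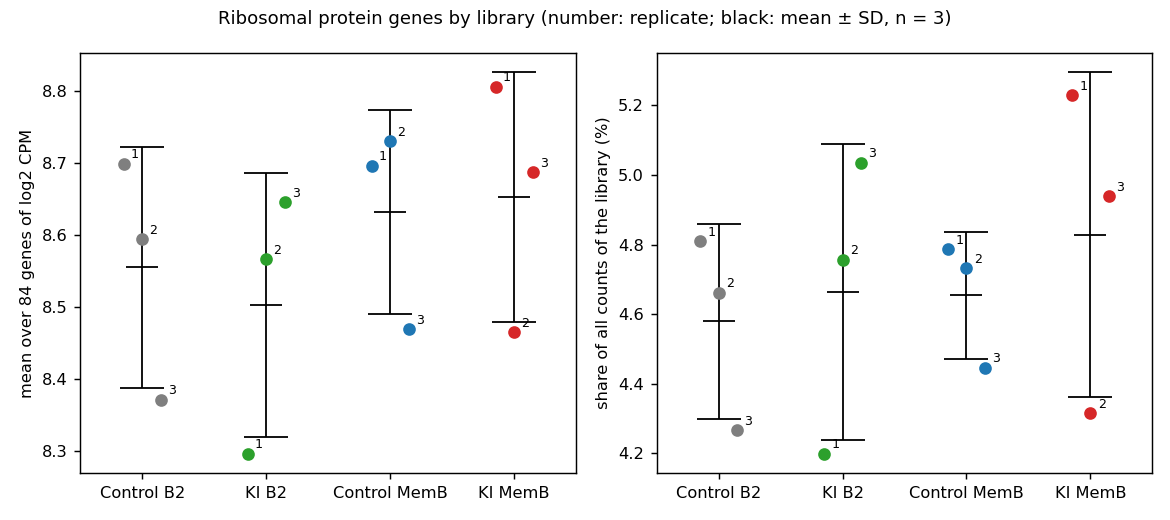
Level of the 84 ribosomal protein genes in each library: left, the mean over the genes of log2 CPM; right, their summed share of all counts in percent. Numbered points are replicates, black bars are the group mean and SD (n = 3); the axes do not start at 0. The 4 groups overlap, and KI MemB replicate 1 is highest in both panels while KI B2 replicate 1 is lowest.

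The mean over members of log2 CPM was 8.65 ± 0.173 in KI MemB, 8.63 ± 0.142 in control MemB, 8.50 ± 0.183 in KI B2 and 8.56 ± 0.167 in control B2 (SD, n = 3 each). The highest and lowest library means, 8.81 in KI MemB replicate 1 and 8.30 in KI B2 replicate 1, were 1.42-fold apart. In KI MemB replicate 1, 75 of the 84 members were above their own mean over the 12 libraries, and in KI B2 replicate 1 only 6 were. The library means moved within every group: control replicate 3 was the lowest of its group in B2 (8.37) and in MemB (8.47). Of the 84 members, 27 had their highest level in KI MemB replicate 1, 26 their lowest in KI B2 replicate 1 and 24 their lowest in control B2 replicate 3. The cytosolic ribosomal RNA gene Rn18s.rs5 had 127227 CPM in KI MemB replicate 1, 100642 CPM in KI B2 replicate 1 and 104109 CPM in control B2 replicate 3. It was lower still in KI MemB replicate 2 (93122 CPM), control MemB replicate 3 (98577 CPM) and KI B2 replicate 3 (99313 CPM). The members' mean log2 CPM in these libraries was 8.47, 8.47 and 8.65. The part of Rn18s.rs5 in the members' level was not tested.

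**Figure D2:**
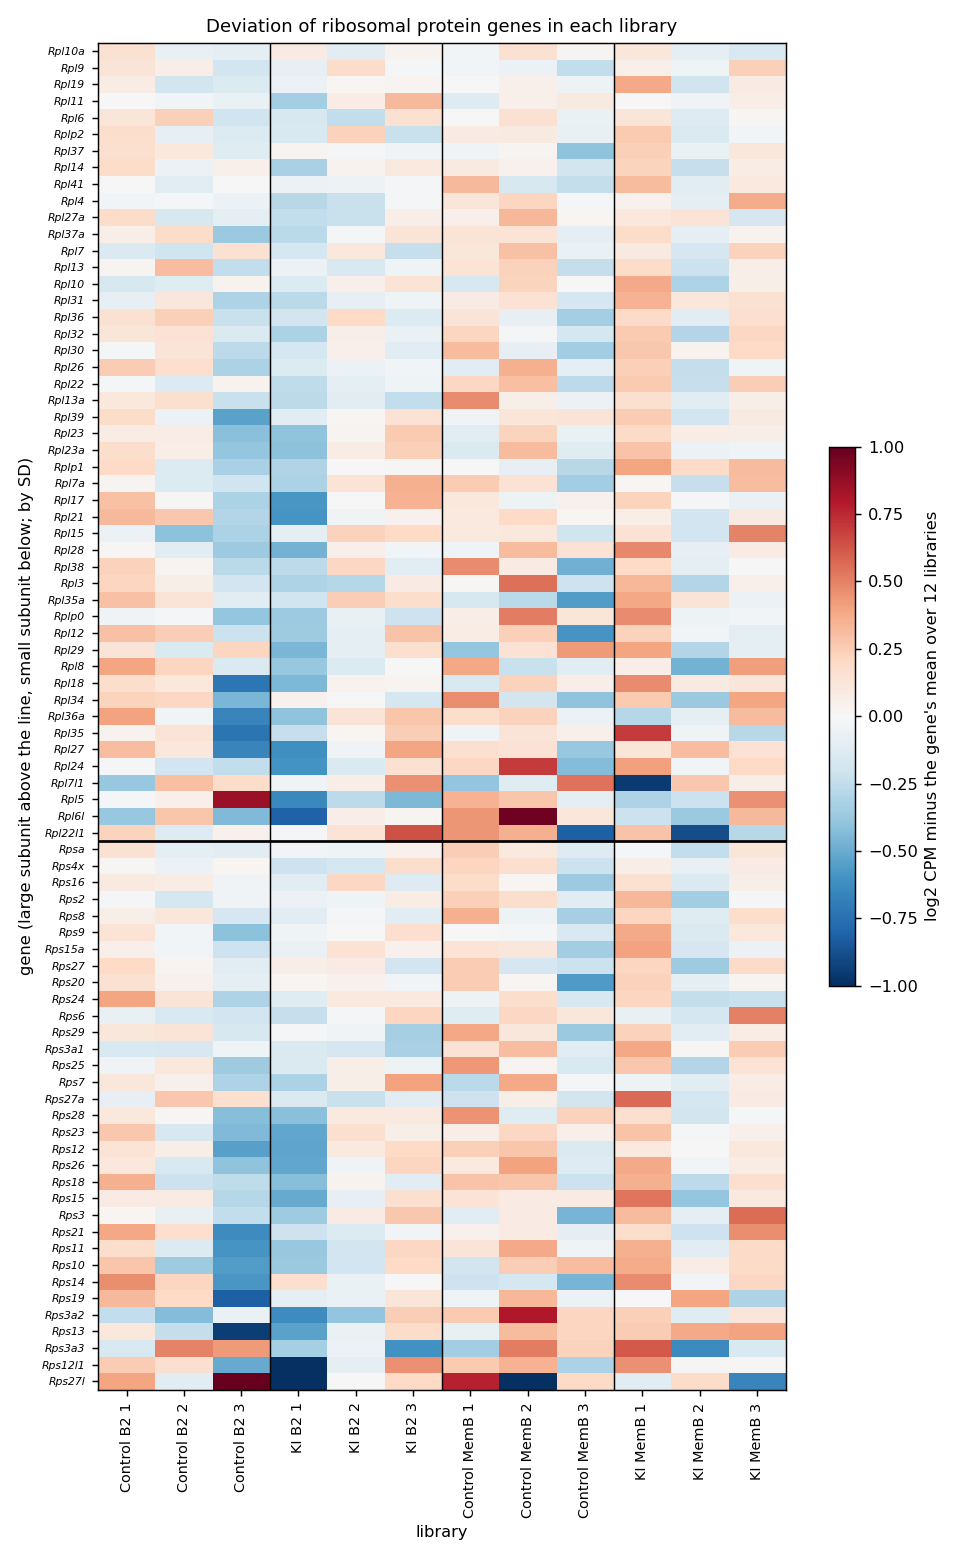
Ribosomal protein genes, 81 of the 84 (rows; large subunit above the black line, small subunit below it, ordered by SD) in each of the 12 libraries (columns), as log2 CPM, with no count added, minus the gene's mean; colours stop at -1 and 1. Columns differ more than groups do: KI B2 replicate 1 and control B2 replicate 3 are mostly blue, and KI MemB replicate 1 is mostly red, with 75 of 84 genes above their mean.

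The members varied less between libraries than most genes, about as much as genes of like abundance, and varied together. The median SD of log2 CPM over the 12 libraries was 0.24 for the members and 1.19 for all 15148 genes tested. Beside genes of like abundance the distance was shorter: over the 163 other genes within the members' middle range of mean log2 CPM (8.41 to 9.49), the median SD was 0.28. Within groups the order turned, with a median SD of 0.24 for the members and 0.23 for those 163 genes. The biological coefficient of variation, edgeR's estimate of spread between replicates beyond counting, had a median of 26.2% for the members, 26.2% for those 163 genes and 79.1% for all genes. The median Pearson r between members across the 12 libraries was 0.43, with 89.9% of member pairs above 0. For the 163 genes it was 0.068, with 56.8% of pairs above 0. These r values are descriptions over 12 libraries that share library preparation and scaling factors. Once the library mean of the members was taken out, their median SD fell to 0.17.

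**Figure D3:**
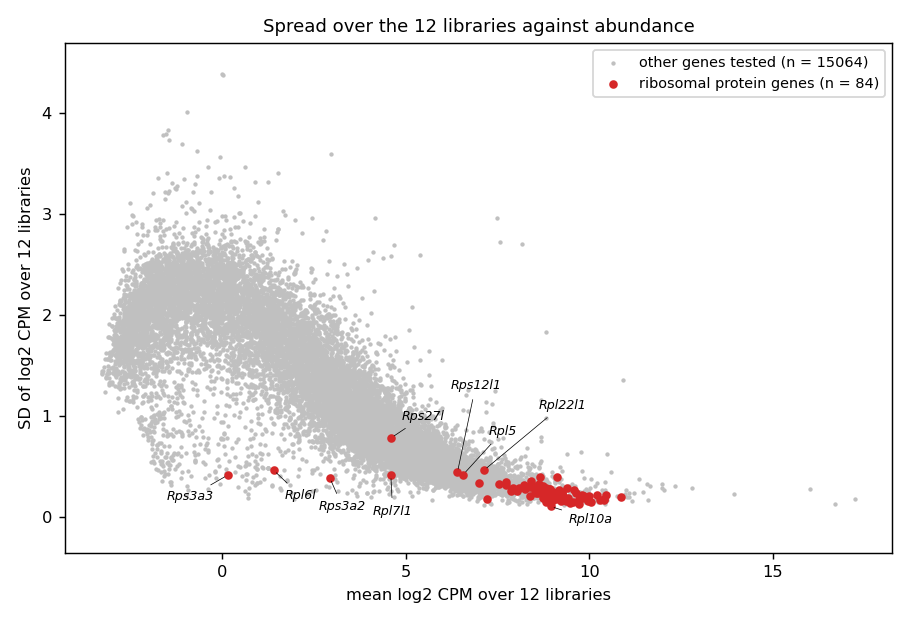
SD of log2 CPM over the 12 libraries (vertical) against mean log2 CPM (horizontal) for 15064 other genes (grey) and the 84 ribosomal protein genes (red). Most red points lie at high abundance with an SD below 0.3, as 64 of the 84 do; Rps27l, at an SD of 0.79, is the highest.

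Rpl10a, which forms a stalk of the large subunit beside the exit site for tRNA, was the steadiest member, at an SD of 0.11. Its levels were 549, 469 and 463 CPM in control B2, 525, 457 and 506 CPM in KI B2, 485, 551 and 504 CPM in control MemB, and 535, 462 and 445 CPM in KI MemB. No library was more than 1.24-fold above another. Rpsa (laminin receptor 1, a small subunit protein), Rpl9, Rps4x and Rpl19 followed, at SDs of 0.14 to 0.15. Of the 84 members, 63 differed by less than 2-fold between their highest and lowest library, and the median ratio was 1.73.

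At the other end stood the low members. Rps27l, a paralog of Rps27 known as a p53 target, had 32.0, 22.4 and 73.2 CPM in control B2, 10.5, 24.2 and 27.9 CPM in KI B2, 41.3, 10.2 and 27.9 CPM in control MemB, and 22.5, 27.5 and 15.4 CPM in KI MemB. Its highest library was control B2 replicate 3 and its lowest control MemB replicate 2, 7.17-fold apart, with overlap between all groups. Rpl22l1, a paralog of Rpl22 that has been tied to blood cell development, followed at an SD of 0.47. The pseudogene entries Rpl6l and Rps12l1 and the 5S RNP protein gene Rpl5 came next, at SDs of 0.47, 0.45 and 0.42.

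Levels between genes were compared as CPM per kb of the annotated canonical transcript, which range from 382 to 6111 bases and so depend on the gene model. Rps27 (3609), Rps29 (2846) and Rpl41 (2431), all short proteins, had the highest mean CPM per kb, and the median member had 448. The 10th and 90th percentiles, 89.5 and 1060 CPM per kb, were 11.8-fold apart. At the low end were the pseudogene entries Rps3a3 (1.38), Rpl6l (3.11) and Rps3a2 (9.88), then Rpl7l1 (18.7) and Rpl5 (27.1), whose canonical transcript is 3646 bases long. Rps27l stood at 52.9 CPM per kb, and was 0.531% to 4.18% of the Rps27 level in the same library. Rpl22l1 stood at 263 CPM per kb, 16.3% to 41.1% of Rpl22.

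The first comparison was KI against control in MemB. With edgeR's quasi-likelihood test and Benjamini-Hochberg adjustment over 15148 genes, 0 of 84 members had an adjusted p below 0.05, where 0.31% of all genes did. At an unadjusted p below 0.05 there were 3 members, where 11.1% of all genes passed. DESeq2 called 0 members, where it called 3.52% of the genes it gave an adjusted p. The median member log2 fold change was 0.0084, with 47 members higher and 37 lower, against a median of -0.03 over all genes. The SD over members was 0.18 and the range ran from -0.61 to 0.51; over all genes the SD was 1.88. Large and small subunit members had medians of 0.0079 and 0.014. The 95% interval of the fold change stayed within 2-fold either way for 78 members and within 1.5-fold for 58.

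The 3 members at an unadjusted p below 0.05 were all higher in KI MemB. Rplp1, a stalk protein, had 801, 696 and 757 CPM in KI MemB, 611, 575 and 501 CPM in control MemB, 697, 552 and 486 CPM in control B2, and 494, 610 and 613 CPM in KI B2. The KI MemB libraries were all above the control MemB libraries, at a log2 fold change of 0.42 ± 0.18 (SE; adjusted p = 0.376, edgeR). The difference from the KI effect in B2 was 0.43 ± 0.26 (adjusted p = 0.685, edgeR).

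Rpl35a, a large subunit protein mutated in some patients with Diamond-Blackfan anaemia, had 524, 438 and 384 CPM in KI MemB and 357, 333 and 272 CPM in control MemB. These groups did not overlap either, and the log2 fold change was 0.48 ± 0.20 (SE; adjusted p = 0.366, edgeR). In B2 it had 490, 437 and 370 CPM in control and 348, 476 and 453 CPM in KI, which overlapped each other.

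Rps3, a small subunit protein at the mRNA entry site, had 836, 632 and 987 CPM in KI MemB and 624, 710 and 487 CPM in control MemB. The groups overlapped, at a log2 fold change of 0.43 ± 0.20 (SE; adjusted p = 0.405, edgeR). Without KI MemB replicate 3 the value was 0.28, and with replicate number 3 left out of every group it was 0.16.

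Rps14, a small subunit protein lost in the 5q- syndrome, had the highest fold change of this comparison, 0.51 ± 0.26 on the log2 scale (SE; adjusted p = 0.470, edgeR). Its levels were 257, 182 and 213 CPM in KI MemB and 160, 164 and 134 CPM in control MemB, with no overlap. In all, 3 members had non-overlapping KI and control MemB libraries, Rplp1, Rpl35a and Rps14, which is 3.57% of the members, where 12.1% of all genes had. Rpl6l and Rps3a2, among the 3 lowest members, are pseudogene entries with means of 2.71 and 7.83 CPM, and their intervals spanned 2-fold both ways.

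The second comparison was KI against control in B2. Again 0 members had an adjusted p below 0.05 (edgeR), where 0.0066% of all genes, a single gene, did. At an unadjusted p below 0.05 there was 1 member, where 5.74% of all genes passed, and DESeq2 called 0 members and 0.289% of genes. The median log2 fold change was -0.03, with 31 members higher and 53 lower, and the all-gene median was -0.03. With library size alone in place of TMM the members' median was 0.03, and with upper-quartile factors 0.02. The SD over members was 0.19, and the values ran from -1.03 (Rps27l) to 0.37 (Rpl15). The 95% intervals stayed within 2-fold for 78 members and within 1.5-fold for 59.

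Rpl5, which binds 5S ribosomal RNA and with Rpl11 can restrain Mdm2, had 60.5, 79.3 and 69.4 CPM in KI B2 and 93.9, 98.2 and 172 CPM in control B2. The groups did not overlap, and the log2 fold change was -0.80 ± 0.33 (SE; adjusted p = 0.838, edgeR). Control B2 replicate 3 was far above the rest, and without it the value was -0.46. Without the same library the value of Rps27l went from -1.03 to -0.38. Rps27a was also lower in every KI B2 library than in every control B2 library. In all, 3 members (3.57%) did not overlap, where 10.2% of all genes did not.

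The third comparison was MemB against B2 in control mice. There were 0 members with an adjusted p below 0.05 (edgeR), where 0.284% of all genes passed. There were 2 at an unadjusted p below 0.05, where 10.6% of all genes passed, and 0 called by DESeq2, where 2.97% of genes were. The median log2 fold change was 0.07, with 60 members higher in MemB and 24 lower, and 0.04 over all genes. With library size alone in place of TMM the members' median was 0.02, and with upper-quartile factors -0.0011. The SD over members was 0.20, with a range of -0.68 to 0.69. The intervals stayed within 2-fold for 79 members and within 1.5-fold for 54.

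Rplp0, the stalk base and a common reference gene in qPCR, had 802, 1088 and 830 CPM in control MemB and 747, 753 and 584 CPM in control B2. Its control MemB libraries lay above all control B2 libraries, at a log2 fold change of 0.38 ± 0.18 (SE; adjusted p = 0.461, edgeR). In KI mice it had 1061, 740 and 751 CPM in MemB and 594, 728 and 662 CPM in B2, again without overlap, at 0.36 ± 0.18 (adjusted p = 0.486, edgeR). Without control MemB replicate 2 the control value was 0.23, and without KI MemB replicate 1 the KI value was 0.18. Rpl35a went the other way in control mice, at -0.43 ± 0.20 (SE; adjusted p = 0.456, edgeR), with the control MemB levels given above all below the control B2 levels. Rps13, a small subunit protein, had 383, 502 and 467 CPM in control MemB and 433, 341 and 210 CPM in control B2, at 0.46 ± 0.23 (adjusted p = 0.477, edgeR), at 0.22 without control B2 replicate 3 and at 0.72 without control B2 replicate 1. In all, 4 members (4.76%) had non-overlapping groups, 3 higher in MemB, Rplp0 and Rps3a2 among them, and Rpl35a lower, where 12.3% of all genes had.

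The fourth comparison was MemB against B2 in KI mice, and its median shift was the largest of the 4. Of the 84, 75 were higher in MemB and 9 lower. The median log2 fold change was 0.13, with an SD over members of 0.16, and the all-gene median was 0.03. The shift was smaller than the spread between libraries, since the group means of the members' log2 CPM differed by 0.15 with SDs of 0.18 in KI B2 and 0.17 in KI MemB. It moved in both directions with single libraries. Without KI B2 replicate 1 the median was 0.05, and without KI MemB replicate 1 it was 0.07. Without KI B2 replicate 3 it was 0.22, and without KI MemB replicate 2 it was 0.25. It also moved with the scaling, and with library size alone in place of TMM the median was 0.03.

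No member had an adjusted p below 0.05 (edgeR; 0 of 84), where 0.389% of all genes did. There were 3 at an unadjusted p below 0.05, where 10.6% of all genes passed, and 0 called by DESeq2, where 2.98% of genes were. The intervals stayed within 2-fold for 76 members and within 1.5-fold for 45. Rps3a1, a small subunit protein, had 1546, 1195 and 1414 CPM in KI MemB and 1074, 1056 and 945 CPM in KI B2. All KI MemB libraries were above all KI B2 libraries, at 0.43 ± 0.15 (SE; adjusted p = 0.321, edgeR), the lowest adjusted p of any member in the comparisons of groups. In control mice its levels were 1306, 1466 and 1092.5 CPM in MemB and 1065, 1058 and 1152 CPM in B2, which overlapped.

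Rplp1, with the levels given above, was another of the 3, at 0.39 ± 0.18 (SE; adjusted p = 0.443, edgeR). In all, 7 members (8.33%) had non-overlapping KI groups, all higher in MemB, among them Rpl18, Rpl31, Rplp0, Rplp1, Rps3a1 and Rps13, where 14.8% of all genes had. Rpl22l1 had the lowest fold change, with 171, 76.1 and 116 CPM in KI MemB and 139, 155 and 218 CPM in KI B2, at -0.50 ± 0.32 (adjusted p = 0.618, edgeR). Its value was -0.83 without KI MemB replicate 1, -0.25 without KI MemB replicate 2 and -0.28 without KI B2 replicate 3.

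**Figure D4:**
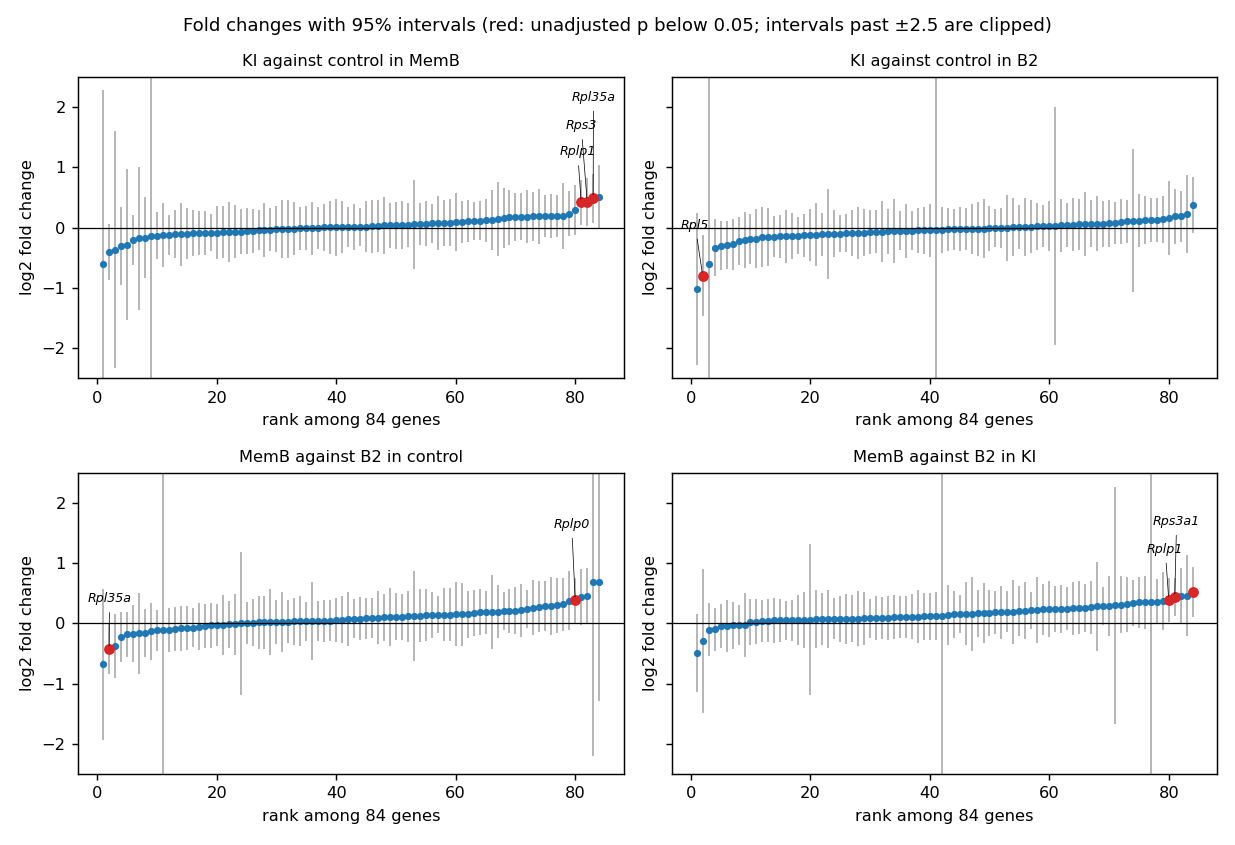
The 84 ribosomal protein genes ranked by log2 fold change (vertical) in each of the 4 comparisons, with 95% intervals from the edgeR fit as grey lines; red marks an unadjusted p below 0.05. Most points lie within 0.5 of 0, from 81 of 84 in KI against control in B2 to 83 of 84 in MemB against B2 in KI, and the long grey lines are low members such as the pseudogene entries.

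The KI effect in MemB was also compared with the KI effect in B2. The median difference over members was 0.06 on the log2 scale with an SD of 0.23. With single libraries left out this median ran from -0.04 to 0.16, so its sign did not hold. There were 0 members with an adjusted p below 0.05 (edgeR), where 0.066% of all genes passed. There were also 0 members at an unadjusted p below 0.05, where 8.49% of all genes passed, and 0 called by DESeq2, where 1.52% of genes were. No member had KI libraries wholly above the control libraries in one cell type and wholly below them in the other, which 0.548% of all genes had. The KI effects in MemB and in B2 share no library, and 42 of 84 members had the same sign in both, with an r of 0.22 across members. Over all 15148 genes 52.1% had the same sign, with an r of 0.014. MemB against B2 in control and in KI, which also share no library, had the same sign in 55 of 84 members, with an r of 0.21. Over all genes it was 54.3%, with an r of 0.078. Members are not independent of each other, since they share the library shifts given above.

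**Figure D5:**
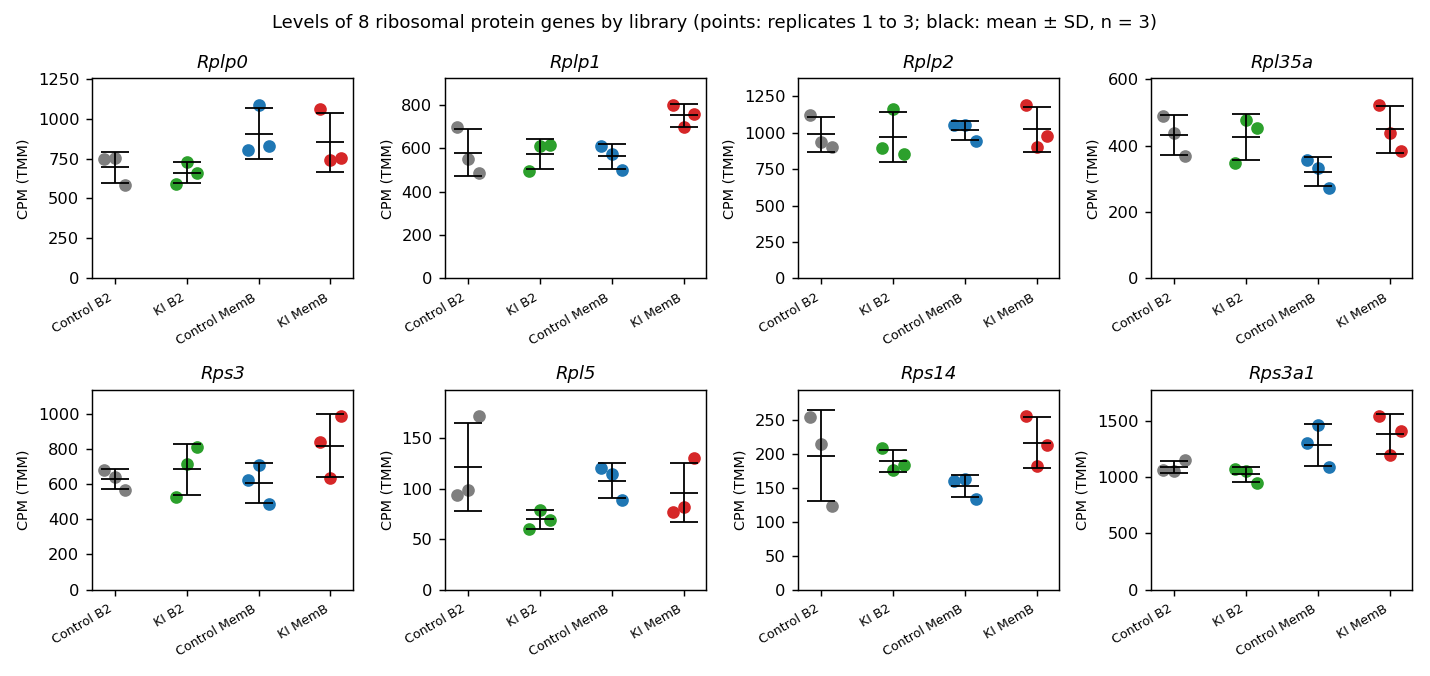
CPM (TMM) of 8 ribosomal protein genes in the 4 groups; points are replicates 1 to 3, black bars are the mean and SD (n = 3), and each axis starts at 0. Rplp1 and Rpl35a separate KI from control MemB, Rpl5 separates KI from control B2 with control B2 replicate 3 at 172 CPM, and Rplp2 overlaps in all groups.

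Between MemB and B2, 4 other well-known members had smaller fold changes than Rplp0, in control and in KI mice. Rplp2, the third stalk protein, had 1124, 936 and 904 CPM in control B2, 893, 1164 and 852 CPM in KI B2, 1053, 1055 and 941 CPM in control MemB, and 1193, 899 and 974 CPM in KI MemB. All 4 groups overlapped, and its log2 fold changes in the 4 comparisons were between -0.03 and 0.08. Rps6, the substrate of S6 kinase, had 546, 519 and 504 CPM in control B2, 489, 568 and 666 CPM in KI B2, 530, 662 and 623 CPM in control MemB, and 545, 508 and 814 CPM in KI MemB. Its largest fold change was 0.21 ± 0.19 on the log2 scale (SE; MemB against B2 in control; adjusted p = 0.771, edgeR). Rpl10, a large subunit protein on X that is placed late in assembly, had fold changes between 0.04 and 0.11 in the same scale. Rpsa had values between -0.12 and 0.09. A p that misses the threshold does not show equal levels: the 95% interval of Rplp2 for KI against control in MemB ran from -0.33 to 0.35.

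Other genes of protein synthesis were read from lists. Ribosomal proteins outside the naming rule such as Fau and Rack1 had 0 of 5 called in any comparison, and medians of 0.08, -0.03, 0.21 and 0.18 for KI against control in MemB, the same in B2, MemB against B2 in control and the same in KI. Translation factors with TOP mRNAs, such as Eef1a1, Eef2, Pabpc1 and Tpt1, had 0 of 17 called, and medians of 0.0051, -0.09, 0.15 and 0.30 in the same order. Other initiation factors had 0 of 11 called, with medians of 0.09, -0.11, 0.04 and 0.09. Ribosome biogenesis genes, which process ribosomal RNA and assemble the subunits, had 0 of 40 called and medians of -0.26, -0.18, 0.09 and -0.12. Regulators of ribosomal protein synthesis, among them Myc, Mtor and Larp1, had 0 of 13 called and medians of -0.15, -0.03, 0.12 and 0.0051.

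Mitochondrial ribosomal proteins, which build the separate ribosome of mitochondria, had 0 of 77 called by edgeR and medians of 0.26, -0.06, -0.13 and 0.05. They were less abundant, at a median mean log2 CPM of 3.75 against 8.93 for the members, and spread more, at a median SD of 0.91. DESeq2 called 1 of the 77 in each of the 4 comparisons, where it called 3.52%, 0.289%, 2.97% and 2.98% of all genes with an adjusted p. Abundant genes outside translation had 1 of 11 called, Actb, the cytoskeletal actin gene, higher in KI MemB than in KI B2 at 0.59 ± 0.13 (SE; adjusted p = 0.0298, edgeR); its DESeq2 adjusted p was 0.149. The median of that list in the same comparison was 0.44, above the 0.13 of the ribosomal protein genes. The 3 ribosomal RNA genes, of which 2 are mitochondrial, had 0 called and medians of -0.06, -0.10, -0.0076 and 0.07. Lists with 0 called by edgeR had 0 to 5 genes at an unadjusted p below 0.05 in a comparison. Across the 4 comparisons 5.74% to 11.1% of all genes passed. The 5 were among the 77 mitochondrial ribosomal proteins for MemB against B2 in KI, where 10.6% of all genes passed. Other than the mitochondrial list, these lists had 0 called by DESeq2. Cell division markers summed to 566 to 972 CPM in KI MemB and 275 to 507 CPM in the other groups, and their part in the members' levels was not tested.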

How the data were processed

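Total RNA of sorted cells was amplified (Ovation RNA-seq System V2) and sequenced as paired-end reads. Per the labels and methods, the authors trimmed with cutadapt 4.5, aligned to mm39 with STAR 2.7.11a and quantified with RSEM 1.3.3. They deposited RSEM expected counts per gene, not normalized, in a single table. Its 12 columns were matched to libraries by the sample descriptions, with 0 left over. Expected counts were rounded to whole numbers; 32.2% of non-zero values were not whole.

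edgeR 4.0.16 (R 4.3.3) was run with TMM, filterByExpr (minimum count 10; 15148 genes left) and robust quasi-likelihood fits of 4 group means over 12 libraries (8 residual degrees of freedom), with Benjamini-Hochberg adjustment over all genes. DESeq2 1.42.0 was the alternative. The scripts were tested on simulated data. Log2 CPM used a prior count of 2. SEs are the log2 fold change over the square root of F; intervals are 95%. Depth covers counting error only, since amplified reads carry no molecular identifiers.

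Members and gene lists were chosen with earlier results of these data known. Genes were named if called, if among the 3 highest or lowest fold changes of a comparison, if among the 5 steadiest or most variable, or if stalk, reference or paralog members; members at an unadjusted p below 0.05 or without overlap were added after their values were seen. Other alternatives were other normalizations, filters, covariates, blocks, genes left out and libraries left out. Sequence windows came from RefSeq tables; proteins were not analysed here. Some genes are not reported here.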

Additional observations from a re-analysis of the deposited data

How the results depend on the processing

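No member was called (adjusted p below 0.05) in any of the 5 contrasts under any alternative run, 29 or 30 settings each with the main one, while the number of all genes called ran from 16 to 483 for KI against control in MemB, from 1 to 42 in B2, from 19 to 408 for MemB against B2 in control, from 16 to 409 in KI and from 2 to 209 for the difference of the KI effects. The upper ends are DESeq2's, and the cause was not tested. The SD over members of the log2 fold change for KI against control in MemB, 0.18, was 0.23 with replicate number 3 left out of all groups, and for MemB against B2 in KI, 0.16, it was 0.20 under that setting; with single libraries left out it ran from 0.18 to 0.21 and from 0.16 to 0.19. The members' median log2 fold change ran, with single libraries left out, from -0.07 to 0.11 for KI against control in MemB, from -0.12 to 0.07 in B2, from -0.0028 to 0.16 for MemB against B2 in control and from 0.05 to 0.25 in KI, so its sign held only in the last. Of 3392 values of named members under alternatives, 48 moved by more than their standard error, 20 of them with replicate number 3 left out. Same-numbered libraries did not pair over all genes, where their deviations correlated between -0.014 and 0.034. Over the members alone these correlations ran from -0.23 to 0.38. A library had 3 candidates in each partner group, its own number among them. It correlated best with its own number in 9 of 24 combinations, a share that does not tell pairing from no pairing. With a replicate block the members' medians were 0.0066 and -0.02 for KI against control in MemB and B2 and 0.07 and 0.14 for MemB against B2 in control and KI, with 0 members called. Without the 4 pseudogene entries, an alternative chosen after seeing the data, the SDs over members were 0.16, 0.19, 0.18 and 0.16. Of the 84 members, 82 had 100 or more counts in every library; with 3 libraries a group, the median SE of a member was 0.20.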

Other observations

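The members were also split by the letters at their annotated start, as a description with no test. The 36 members with a C and pyrimidine run within 10 bases of the start had median log2 fold changes of 0.0084 for KI against control in MemB and 0.10 for MemB against B2 in control. The 24 without it had 0.0065 and 0.08. By the stricter letters, a C at the start itself with 4 C or T after it, the 13 members with them had medians of 0.07 and 0.07 in these comparisons, and the 47 without them -0.01 and 0.09. In KI mice the MemB against B2 medians were 0.08 with the run and 0.11 without it. The median SD over the 12 libraries was 0.25 with the run and 0.21 without it. Members with CCGGAA (34) and without it (26) had medians of 0.09 and 0.10 for MemB against B2 in KI, and members with ATGGCG (19) and without it (41) had 0.10 and 0.09.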
